A study of Mus musculus with 24 samples.

Results

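The genes described here encode the nuclear subunits of respiratory complexes II, III, IV and V. They were taken from the count table by name: Sdha to Sdhd, all symbols beginning with Uqcr together with Cyc1, the Cox4 to Cox8 series, and all symbols beginning with Atp5, with pseudogenes left out. The rule found 48 of the 48526 genes in the table, of which 4 belong to complex II, 9 to complex III, 18 to complex IV and 17 to complex V. Among the complex IV genes, 10 are the ubiquitous subunits, 7 are tissue-specific isoforms, and Cox7a2l is known as a factor that joins complexes III and IV. Among the complex V genes, 2 carry the name but are no core subunits (Atp5s and Atp5sl). After the filter on low counts 44 of the 48 were tested. The other 4 are the tissue-specific isoforms Cox4i2, Cox7b2, Cox8b and Cox8c.

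Complex II is succinate dehydrogenase, which links the citric acid cycle to the respiratory chain by passing electrons from succinate to ubiquinone. Complex III hands electrons from reduced ubiquinone to cytochrome c, complex IV (cytochrome c oxidase) passes them to oxygen, and complex V (ATP synthase) uses the resulting proton gradient to make ATP. All subunits of complex II come from nuclear genes, whereas complexes III, IV and V also hold subunits encoded in mitochondrial DNA. The proximal tubule, which makes up most of the renal cortex, is packed with mitochondria whose ATP drives the reabsorption of filtered solutes.

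The study used C57BL/6 mice throughout, in 4 groups of 6, and sampled their renal cortex. Diabetic mice had received 5 daily injections of 55 mg/kg streptozotocin, a toxin of the insulin-producing beta cell, from 6 weeks of age, and non-diabetic mice had received sodium citrate. Mice of both kinds drank either plain water (called vehicle here) or water with 2 mg/kg PMX-53, a peptide inhibitor of the complement receptor C5aR1, and were followed for 24 weeks. The labels used here give neither sex nor substrain, and nothing in them says whether mice were pooled. The samples are named separately, so p-values measure the spread between 24 samples, part of which may be technical.

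Libraries held 10964992 to 22000895 counts. Levels are CPM, which is a gene's counts relative to its library total after TMM scaling (edgeR's trimmed mean of log ratios), and a member counts as changed where edgeR's quasi-likelihood test gave an adjusted p under 0.05 over all 15808 genes tested. The diabetic vehicle libraries differed from the other groups in several ways that bear on every comparison with them. Ribosomal RNA took 24.99 to 30.4% of their counts, 19.8 to 24.3% in non-diabetic vehicle and 22.3 to 27.7% in diabetic PMX-53 libraries. Mitochondrially encoded genes took 5.79 to 6.98% of counts outside ribosomal RNA there, 4.20 to 5.75% in non-diabetic vehicle libraries and 4.23 to 6.73% in diabetic PMX-53 libraries. Nnt, a transhydrogenase of the inner mitochondrial membrane that is no member, lay at 242 to 272 CPM in diabetic vehicle libraries and between 101 and 121 CPM in all others. Wdfy1, also no member, lay at 66.6 to 79.6 CPM in diabetic vehicle libraries and between 26.1 and 33.2 CPM in all others. Of the 8 proximal tubule markers 4 fell and 2, Cubn and Slc5a12, rose with diabetes on vehicle. In that comparison 19.9% of all tested genes fell and 20.4% rose. The sum of the 8 markers, in which Lrp2 and Slc34a1 weigh most, was 10228 to 12507 CPM in diabetic vehicle, 13821 to 16500 in non-diabetic vehicle and 11524 to 15481 in diabetic PMX-53 libraries. The 8 collecting duct markers summed to 289.9 to 424 CPM in diabetic vehicle, 152 to 214 in non-diabetic vehicle and 274 to 339 in diabetic PMX-53 libraries. Of 7 red blood cell markers 6 fell and 1 rose with diabetes on vehicle, and 5 rose with PMX-53 in diabetic mice. With PMX-53 in diabetic mice 13.9% of all tested genes rose. The 5 medulla and papilla markers summed to 69.4 to 115 CPM in diabetic vehicle, 46.0 to 55.3 in non-diabetic vehicle and 48.2 to 58.8 in diabetic PMX-53 libraries. The part of these differences in the results below was not tested, and another trait of the diabetic vehicle group cannot be told apart from diabetes or from the PMX-53 effect in diabetic mice. In whole tissue fewer cells of a type and less RNA per cell cannot be told apart.

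Most subunit genes of complexes II to V were higher in diabetic than in non-diabetic cortex on vehicle, and most were lower with PMX-53 than with vehicle in diabetic mice. With diabetes on vehicle 33 of the 44 tested members rose and 0 fell, against 20.4% of all tested genes that rose, 19.9% that fell and 40.3% that changed either way. Their median log2 fold change was 0.30 over the 44, beside -0.00 for all tested genes. With PMX-53 in diabetic mice 31 of 44 fell and 0 rose, against 13.5% of all tested genes that fell, 13.9% that rose and 27.3% that changed. Over the 44 members the median there was -0.31, that of all tested genes 0.00. Both comparisons use the diabetic vehicle libraries, and 30 members were called in both. Atp5a1, Atp5g3 and Uqcrc1 passed in the first alone and Uqcrc2 in the second alone.

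Scaling moved these counts. Without any scaling beyond library totals 24 members rose with diabetes on vehicle and 20 fell with PMX-53 in diabetic mice. All tested genes then had medians of -0.09 and 0.12, and the members' medians relative to these were 0.30 and -0.31, as with TMM. Among all called genes 31.2% were then higher with diabetes on vehicle, against 50.7% with TMM, and 79.5% against 50.7% were higher with PMX-53 in diabetic mice.

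With PMX-53 in non-diabetic mice edgeR called 0 of 44 members (0.00% of all tested genes), 1 had an unadjusted p under 0.05, and DESeq2 called 0. The members' median log2 fold change was 0.02. Between diabetic and non-diabetic mice on PMX-53 edgeR also called 0 of 44, against 10% of all tested genes (5.52% higher, 4.52% lower), and 4 had an unadjusted p under 0.05. DESeq2 called 2 here, Atp5a1 at 0.11 ± 0.03 (SE, adjusted p = 0.0147) and Atp5g3 at 0.15 ± 0.04 (adjusted p = 0.0157). The median was -0.01. The interaction of PMX-53 with diabetes, which is the PMX-53 effect in diabetic mice minus that in non-diabetic mice, was below 0 and called for 27 of 44 members, against 4.76% of all tested genes below 0, 4.66% above 0 and 9.42% in either direction. The interaction also uses the diabetic vehicle libraries. Without scaling 14 members were called. The share of higher genes among all called in the interaction was 79.3% without scaling and 49.5% with TMM, and between diabetic and non-diabetic mice on PMX-53 it was 65.7% and 54.9%.

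**Figure D1:**
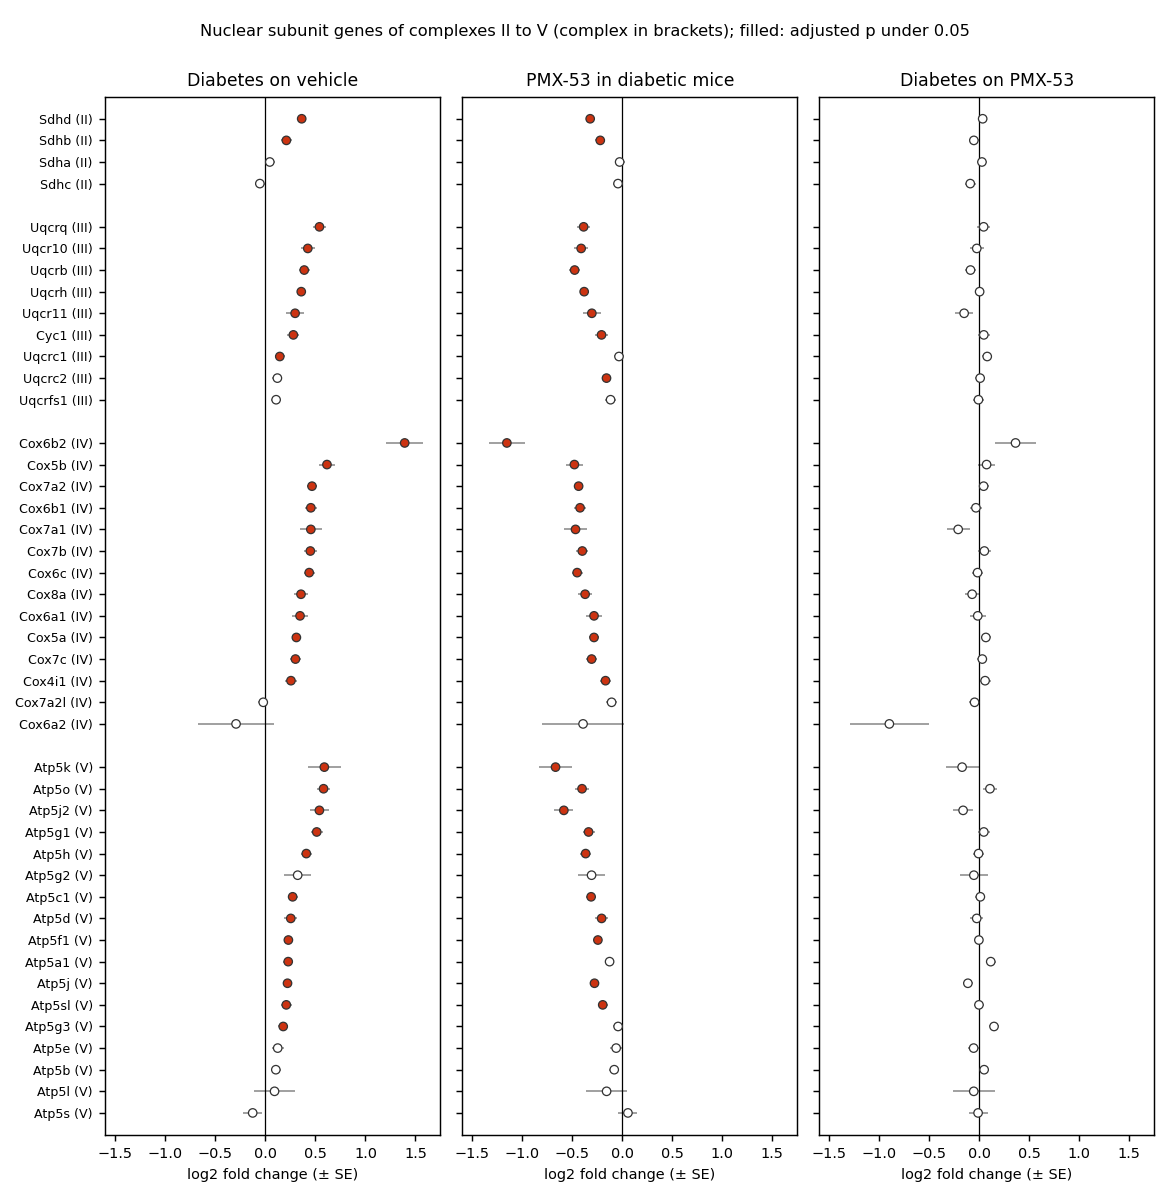
Log2 fold change with its standard error for the 44 tested members in 3 comparisons, grouped by complex and ordered by the first comparison, with filled points where the adjusted p was under 0.05. Filled points lie right of 0 for 33 members with diabetes on vehicle and left of 0 for 31 with PMX-53 in diabetic mice (24 and 20 without scaling beyond library totals), and no point is filled for diabetes on PMX-53.

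In 18 members all 6 diabetic vehicle libraries lay above all 18 other libraries, which held for 2.02% of all tested genes, whereas 1.71% lay below all others. Of these 1 belongs to complex II, 2 to complex III, 9 to complex IV and 6 to complex V. The 6 diabetic vehicle libraries lay above all non-diabetic vehicle libraries in 26 members (7.86% of all tested genes). The 6 diabetic PMX-53 libraries lay below all diabetic vehicle libraries in 19 members (4.29% of all tested genes).

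Respiratory genes are known for binding sites of NRF-1, of ETS-family factors such as GABP, and of estrogen-related receptors (ERR) near their starts. In the RefSeq promoter table (GRCm38.p6), 34 of the 48 members had a window of 250 bases before to 50 after a start site. The searched letters, on both strands, were GCGCA and GCGC joined by any 1 base for NRF-1, CCGGAAG for ETS factors, AAGGTCA for ERR, AAGATGG for YY1 and GGGCGGG for Sp1, each searched alone, so that overlapping matches would count for both. The NRF-1 letters were in a window of 10 of the 34 matched members (29.4%), against 5.19% of all 27025 genes in the table, counted in the same way as a match in any window of the gene. The ETS letters were in 12 (35.3% against 9.93%) and the ERR letters in 5 (14.7% against 5.38%). The YY1 letters were in 3 (8.82% against 7.28%) and the Sp1 letters in 10 (29.4% against 27.9%).

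The 120 bases before the start are printed for 6 members that differ in their values. Sdhd, Uqcrh and Cox6a1 rose with diabetes on vehicle and fell with PMX-53 in diabetic mice. Atp5g3 rose with diabetes and was not called with PMX-53, Atp5e was called in neither comparison, and Cox6b2 had the largest fold change among the members. Sdhd, Uqcrh and Cox6a1 all held searched letters. Cox7a2, Cox5b, Cox7b, Atp5g1, Uqcr10 and Cox5a, which also rose and fell, held none of the searched letters in their windows. Capitals mark the searched letters on either strand.
Sdhd (chr9:50603850-50603969, minus strand, NRF-1 then ETS): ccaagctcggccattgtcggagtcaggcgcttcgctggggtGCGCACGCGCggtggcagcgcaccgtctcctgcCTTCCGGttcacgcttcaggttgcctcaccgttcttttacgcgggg
Uqcrh (chr4:116075071-116075190, minus strand, ETS): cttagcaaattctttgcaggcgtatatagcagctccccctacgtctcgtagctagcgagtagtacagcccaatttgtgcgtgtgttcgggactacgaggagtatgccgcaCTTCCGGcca
Cox6a1 (chr5:115348959-115349078, minus strand, NRF-1, Sp1, then ETS): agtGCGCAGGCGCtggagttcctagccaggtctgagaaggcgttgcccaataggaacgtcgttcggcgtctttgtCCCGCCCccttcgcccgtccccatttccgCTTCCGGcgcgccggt
Atp5g3 (chr2:73911327-73911446, minus strand, ERR): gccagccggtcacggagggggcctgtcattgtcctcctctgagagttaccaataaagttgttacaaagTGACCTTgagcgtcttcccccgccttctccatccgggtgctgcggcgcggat
Atp5e (chr2:174464102-174464221, minus strand, ETS then Sp1): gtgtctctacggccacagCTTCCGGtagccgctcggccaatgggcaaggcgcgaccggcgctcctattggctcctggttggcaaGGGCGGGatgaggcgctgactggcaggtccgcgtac
Cox6b2 (chr7:4753095-4753214, minus strand, no match in these bases): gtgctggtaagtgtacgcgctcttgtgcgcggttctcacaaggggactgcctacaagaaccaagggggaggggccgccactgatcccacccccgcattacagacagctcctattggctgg
The NRF-1 letters were in 8 of 25 matched members that rose with diabetes on vehicle and in 2 of 7 tested members that were not called there. For the ETS letters these counts were 10 of 25 and 2 of 7. Sdha, which was called in neither comparison, held the NRF-1 letters 3 times in its window. A match is a description of these letters and not evidence of binding.

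In complex II the membrane anchor Sdhd and the iron-sulfur subunit Sdhb changed, and the flavoprotein Sdha and the other anchor Sdhc did not pass. Sdhd (ENSMUSG00000000171, GRCm38 chromosome 9, 50596357 to 50603812, minus strand) lay at 132, 135 and 141 CPM in non-diabetic vehicle libraries (lowest, median and highest of 6) and at 159, 176 and 186 CPM in diabetic vehicle libraries. With PMX-53 it lay at 128, 137 and 143 CPM in non-diabetic and 130.1, 140.1 and 147 CPM in diabetic libraries. The lowest diabetic vehicle library was thus above every library of the other groups. Sdhd rose 1.29-fold with diabetes on vehicle (log2 fold change 0.36 ± 0.05, SE, adjusted p = 6.82e-07) and fell in diabetic mice given PMX-53 (-0.32 ± 0.05, adjusted p = 1.38e-05). Sdhb lay at 174, 182 and 187 CPM in non-diabetic vehicle and 199, 211 and 216 CPM in diabetic vehicle libraries, with no overlap. On PMX-53 the diabetic libraries spread from 159 to 206 CPM and reached into the diabetic vehicle range. Its log2 fold changes were 0.21 ± 0.05 (adjusted p = 0.00193) and -0.22 ± 0.05 (adjusted p = 0.00210). Without scaling they were 0.11 (adjusted p = 0.159) and -0.11 (adjusted p = 0.220), and neither was called.

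Sdha and Sdhc were called in neither comparison. Sdha lay at 517, 537 and 551 CPM in non-diabetic vehicle and 507, 546 and 593 CPM in diabetic vehicle libraries, and the groups overlapped. Its log2 fold change of 0.04 ± 0.05 (adjusted p = 0.526) with diabetes on vehicle turned to -0.05 without scaling. Sdhc had -0.06 ± 0.05 (adjusted p = 0.425), at 161, 168 and 180.3 CPM against 147, 161 and 181 CPM. In the interaction 2 of the 4 members were called, Sdhd at -0.33 ± 0.07 (adjusted p = 0.00217) and Sdhb at -0.26 ± 0.07 (adjusted p = 0.0226). Without scaling neither was called there (adjusted p = 0.150 and 0.303).

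In complex III all 9 members had a log2 fold change above 0 with diabetes on vehicle and 7 rose, and 7 fell with PMX-53 in diabetic mice. Uqcrq, the small subunit next to cytochrome b (ENSMUSG00000044894, chromosome 11, 53427922 to 53430831), lay at 85.0, 97.7 and 104 CPM in non-diabetic vehicle and 122, 143 and 151 CPM in diabetic vehicle libraries. On PMX-53 the diabetic libraries lay at 91.9, 107 and 125 CPM. The diabetic vehicle libraries were above all non-diabetic vehicle libraries, and 1 diabetic PMX-53 library reached into their range. Uqcrq rose 1.45-fold (0.54 ± 0.07, adjusted p = 6.16e-07) and fell in diabetic mice given PMX-53 (-0.39 ± 0.07, adjusted p = 1.32e-04).

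Uqcrh, the hinge protein that eases the contact with cytochrome c, and Uqcrb, a small subunit at the ubiquinone-binding side, each had all 6 diabetic vehicle libraries above the 18 others. Uqcrh lay at 103, 105 and 108 CPM in non-diabetic vehicle and 121, 136 and 147 CPM in diabetic vehicle libraries, and at 97.5, 103 and 114 CPM in diabetic PMX-53 libraries. For Uqcrb the values were 66.6, 68.5 and 74.5 CPM, then 85.2, 91.8 and 97.5 CPM, then 57.7, 66.7 and 71.1 CPM. With PMX-53 both overlapped the non-diabetic vehicle range. The log2 fold changes of Uqcrh were 0.36 ± 0.04 (adjusted p = 5.71e-07) and -0.38 ± 0.04 (adjusted p = 1.03e-06). Those of Uqcrb were 0.39 ± 0.05 (adjusted p = 2.14e-06) and -0.48 ± 0.05 (adjusted p = 5.34e-07), and its interaction of -0.48 ± 0.08 had the smallest adjusted p among the members (3.99e-04).

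Uqcr10, another small subunit, rose by 0.42 ± 0.07 (adjusted p = 2.86e-05), from 93.5, 113 and 121 CPM to 129, 147 and 161 CPM. Uqcr11 and cytochrome c1 (Cyc1), the heme protein that passes the electron to cytochrome c, rose by 0.30 ± 0.09 and 0.28 ± 0.06 and fell with PMX-53 in diabetic mice. The remaining members are the large core proteins of the matrix arm and the Rieske iron-sulfur protein of the catalytic centre, and the difference between these and the small subunits was not tested. Uqcrc1 rose by 0.14 ± 0.05 (adjusted p = 0.0287) and had -0.03 ± 0.05 (adjusted p = 0.668) with PMX-53. Uqcrc2 had 0.12 ± 0.05 (adjusted p = 0.0528) and fell by 0.16 ± 0.05 (adjusted p = 0.0164). Uqcrfs1, the Rieske protein, passed in neither, at 160.3, 169 and 179 CPM in non-diabetic vehicle and 171, 176 and 204 CPM in diabetic vehicle libraries. Its values were 0.11 ± 0.05 (adjusted p = 0.0959) and -0.12 ± 0.05 (adjusted p = 0.0841).

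**Figure D2:**
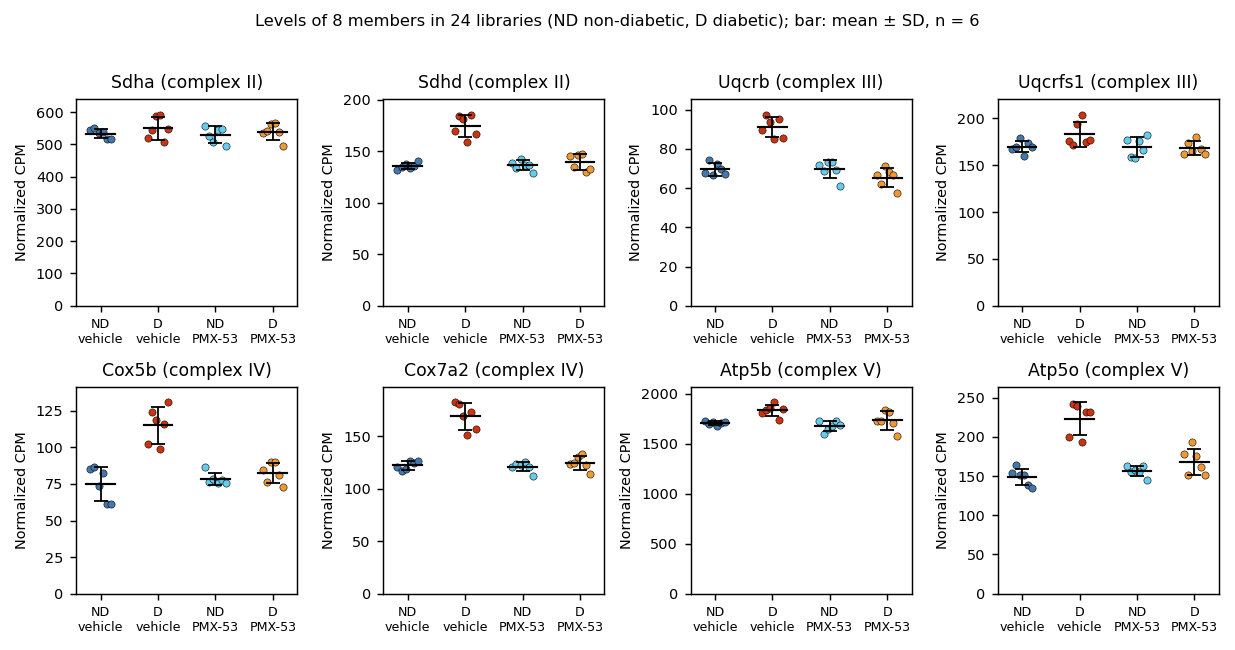
Normalized CPM of 8 members in all 24 libraries (ND non-diabetic, D diabetic), 2 members from each complex, with bars for the mean ± SD of 6 libraries and the axis starting at 0. The diabetic vehicle libraries lie above the other groups for Sdhd, Uqcrb, Cox5b, Cox7a2 and Atp5o, whereas Sdha, Uqcrfs1 and Atp5b overlap with at least 1 other group.

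All 10 ubiquitous subunits of complex IV rose with diabetes on vehicle and all 10 fell with PMX-53 in diabetic mice. Without scaling the rise of Cox4i1 (0.17, adjusted p = 0.0643) and the falls of Cox4i1 (-0.05, adjusted p = 0.613) and Cox6a1 (-0.17, adjusted p = 0.0804) were not called. In 8 of them the 6 diabetic vehicle libraries lay above the 18 others. Cox7a2 (ENSMUSG00000032330, chromosome 9, 79755361 to 79759878), the ubiquitous form of a small transmembrane subunit, had the smallest p of all members with diabetes on vehicle. It lay at 117, 123 and 127 CPM in non-diabetic vehicle and 152, 171 and 182 CPM in diabetic vehicle libraries. On PMX-53 it lay at 113, 122 and 126 CPM in non-diabetic and 114, 124 and 133 CPM in diabetic libraries, and these 3 groups overlapped. The gene rose 1.38-fold (0.47 ± 0.05, adjusted p = 4.46e-08) and fell in diabetic mice given PMX-53 (-0.44 ± 0.05, adjusted p = 5.10e-07).

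Cox5b, a zinc-binding subunit on the matrix side, lay at 61.1, 78.2 and 86.5 CPM in non-diabetic vehicle, 98.8, 117 and 131 CPM in diabetic vehicle and 73.1, 82.8 and 89.9 CPM in diabetic PMX-53 libraries. The 2 lowest values, 61.1 and 61.4 CPM, came from non-diabetic vehicle libraries 5 and 6. Cox5b rose 1.53-fold (0.62 ± 0.08, adjusted p = 1.99e-06) and fell with PMX-53 (-0.48 ± 0.08, adjusted p = 1.23e-04). Cox6b1 bridges the monomers of the dimer on the outer face, and Cox6c is a small transmembrane subunit. Cox6c went from 118, 125 and 132 CPM to 146, 170.0 and 186 CPM (0.44 ± 0.05, adjusted p = 4.39e-07), and lay at 115, 122 and 134 CPM in diabetic PMX-53 libraries (-0.45 ± 0.05, adjusted p = 1.22e-06). Cox6b1 went from 174, 186 and 201 CPM to 237, 251 and 284 CPM (0.45 ± 0.06, adjusted p = 1.17e-06), with 159.8, 187 and 218 CPM on PMX-53 in diabetic mice (-0.42 ± 0.06, adjusted p = 1.21e-05).

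Of the 6 other ubiquitous subunits Cox7b rose by 0.45 ± 0.06, Cox8a by 0.36 ± 0.07, Cox6a1 by 0.35 ± 0.08, Cox5a by 0.31 ± 0.05, Cox7c by 0.30 ± 0.05 and Cox4i1 by 0.26 ± 0.06. Cox4i1, the regulatory subunit to which ATP binds, was the least changed of the 10 in both comparisons. It lay at 299.7, 345 and 359 CPM in non-diabetic vehicle and 363, 395 and 432 CPM in diabetic vehicle libraries. With PMX-53 in diabetic mice Cox4i1 fell by 0.17 ± 0.06 (adjusted p = 0.0351). This call was also lost without the filter on low counts (adjusted p = 0.0627), with the replicate block (0.0533) and with the length offset (0.0832). The fit of only the groups compared (0.0709) and several fits that left out 1 library lost it too. In the interaction 9 of the 10 ubiquitous subunits were called and Cox4i1 was not (-0.20 ± 0.08, adjusted p = 0.141). The call of Cox6a1 (-0.36 ± 0.11, adjusted p = 0.0429) was lost without scaling (adjusted p = 0.110), without the filter on low counts (0.0578) and with the length offset (0.0939). Most fits that left out 1 library lost the call of Cox6a1 as well. Cox7a2l, known for tying complex III to complex IV in the supercomplex, a role not tested in these mice, was called in neither comparison. It lay at 35.5, 39.2 and 41.0 CPM in non-diabetic vehicle and 35.3, 37.4 and 40.8 CPM in diabetic vehicle libraries (-0.02 ± 0.05, adjusted p = 0.769).

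**Figure D3:**
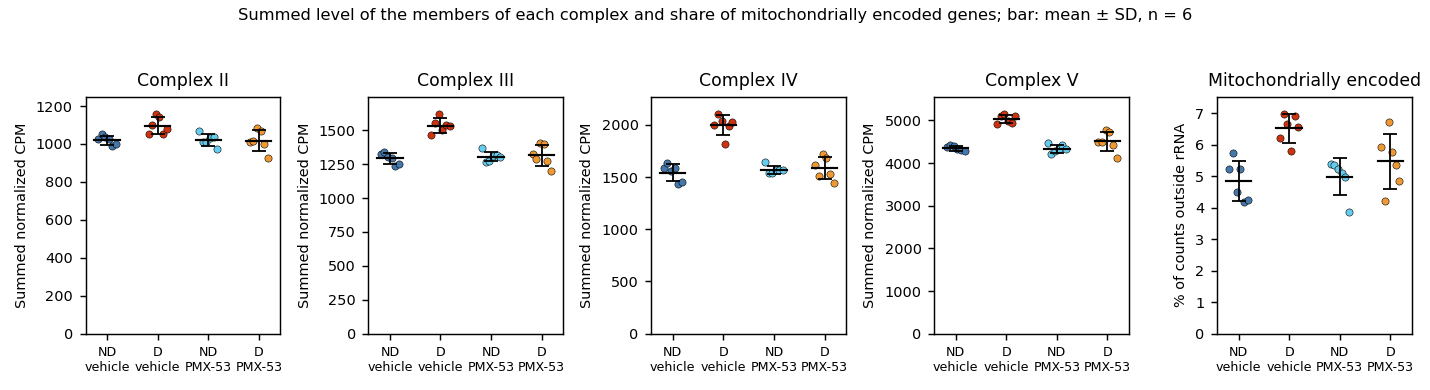
Summed normalized CPM of the members of each complex and the share of counts from mitochondrially encoded genes outside ribosomal RNA, in all 24 libraries, with bars for the mean ± SD of 6 libraries and axes starting at 0. For complexes III, IV and V every diabetic vehicle library lies above all others, whereas the ranges meet for complex II and for the mitochondrial share.

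Summed over its members, complex IV lay at 1439 to 1636 CPM in non-diabetic vehicle, 1821 to 2103 CPM in diabetic vehicle, 1536 to 1643 CPM in non-diabetic PMX-53 and 1447 to 1724 CPM in diabetic PMX-53 libraries. Complex III lay at 1239 to 1339.5 CPM, 1463 to 1619, 1268 to 1367 and 1196 to 1403 CPM in the same order. For complex V the ranges were 4283 to 4412, 4907 to 5145, 4221 to 4466 and 4128 to 4773 CPM. In these 3 complexes the diabetic vehicle libraries thus lay above all others. The complex II sums met, at 988 to 1054 CPM in non-diabetic vehicle, 1050.2 to 1157 in diabetic vehicle and 927 to 1082 in diabetic PMX-53 libraries. A sum is weighted by its most abundant genes, and the difference between complexes was not tested.

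Among the tissue-specific complex IV isoforms, 3 of 7 were tested, and Cox6b2 and Cox7a1 rose with diabetes on vehicle and fell with PMX-53 in diabetic mice. Cox6b2, known as the testis form of the bridging subunit (ENSMUSG00000051811, chromosome 7, 4751792 to 4753094), lay at 1.82, 2.35 and 3.32 CPM in non-diabetic vehicle and 3.91, 6.25 and 8.57 CPM in diabetic vehicle libraries. With PMX-53 it lay at 1.66, 1.93 and 3.08 CPM in non-diabetic and 2.40, 2.91 and 3.75 CPM in diabetic libraries. Each diabetic vehicle library was above every other library, although the range within that group was wide. Cox6b2 rose 2.62-fold (1.39 ± 0.19, adjusted p = 1.40e-06) and fell in diabetic mice given PMX-53 (-1.16 ± 0.18, adjusted p = 4.17e-05). The 6 male germ cell markers had 0 counts in all 24 libraries. Relative to the sum of Cox6b2 and Cox6b1, Cox6b2 made up 1.36 to 2.25% in non-diabetic vehicle and 2.06 to 4.42% in diabetic vehicle libraries, per length of transcript.

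Cox7a1, the heart and muscle form of Cox7a2, lay at 3.75, 4.09 and 5.28 CPM in non-diabetic vehicle and 5.09, 5.92 and 6.63 CPM in diabetic vehicle libraries, so the groups overlapped slightly. It rose by 0.45 ± 0.11 (adjusted p = 0.00186) and fell in diabetic mice given PMX-53 (-0.47 ± 0.11, adjusted p = 0.00249). Its share of the pair per length was 4.85 to 7.03% in non-diabetic vehicle and 4.47 to 6.83% in diabetic vehicle libraries. Cox6a2, the heart and muscle form of Cox6a1, was near 1 CPM or below in most libraries. It lay at 0.650, 0.834 and 1.64 CPM in non-diabetic vehicle and 0.130, 0.710 and 1.52 CPM in diabetic vehicle libraries, and was not called (-0.29 ± 0.38, adjusted p = 0.570). The 14 skeletal and heart muscle markers summed to 2.03 to 5.01 CPM in non-diabetic vehicle and 1.84 to 3.18 CPM in diabetic vehicle libraries, with Myh2 and Myh4 at 0.

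The 4 isoforms that were not tested had few counts or none. Cox4i2, the oxygen-regulated form of Cox4i1 that is best known from lung, had 48 counts in all 24 libraries and was at 0 in 4 of them. Cox8b, the muscle form of Cox8a, had 4 counts, and Cox7b2, the testis form of Cox7b, had 2. Cox8c had 0 counts in all libraries, which allows a level of up to 0.00768 CPM over the pooled libraries, and this limit covers counting error alone. The ubiquitous counterparts Cox4i1, Cox7b and Cox8a were each above 107 CPM in every library. The 5 brown fat markers had 80 counts in all.

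**Figure D4:**
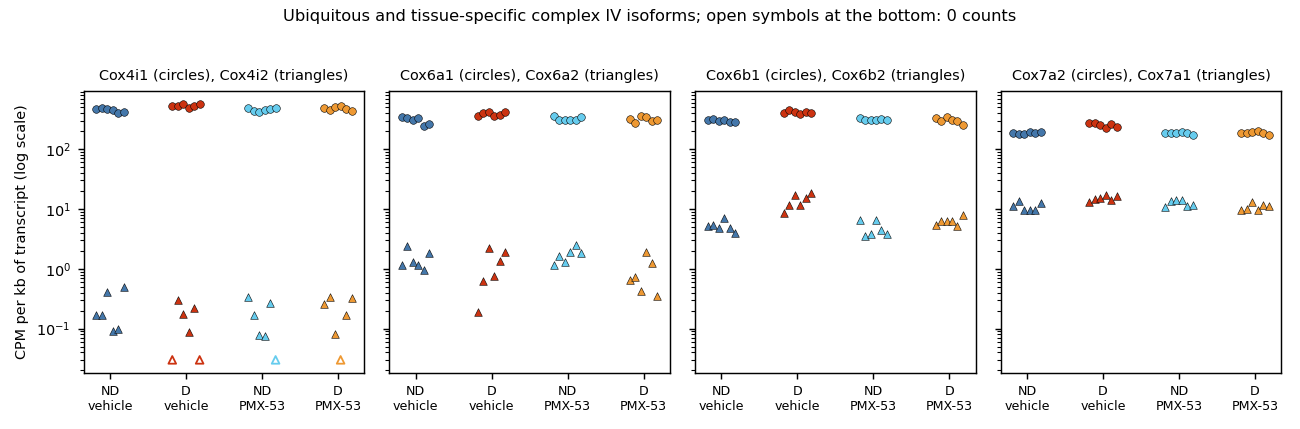
CPM per kilobase of transcript, on a log axis, of 4 ubiquitous complex IV subunits (circles) and their tissue-specific isoforms (triangles) in all 24 libraries, with open symbols for libraries at 0 counts. Each ubiquitous form lies far above its isoform, and Cox6b2 is raised in the diabetic vehicle libraries, from 1.82 to 3.32 CPM in non-diabetic vehicle to 3.91 to 8.57 CPM.

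ATP synthase consists of a catalytic F1 head, a central and a peripheral stalk, a membrane part and a rotating ring of c subunits. In complex V 12 of 17 members rose with diabetes on vehicle and 10 fell with PMX-53 in diabetic mice. Among the 7 stalk and membrane subunits 6 rose and the same 6 fell, with medians of 0.41 and -0.37. Among the 5 subunits of the F1 head 3 rose and 2 fell, with medians of 0.23 and -0.13. Of the 3 c-ring genes 2 rose and 1 fell. The difference between these classes was not tested.

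Atp5o, the subunit that fixes the peripheral stalk to the head (ENSMUSG00000022956, chromosome 16, 91925214 to 91931687), lay at 135, 151 and 164 CPM in non-diabetic vehicle and 193, 232 and 241 CPM in diabetic vehicle libraries. On PMX-53 it lay at 145, 157 and 163 CPM in non-diabetic and 151, 168 and 193 CPM in diabetic libraries. All diabetic vehicle libraries were above all others, the highest diabetic PMX-53 library being at 192.8 CPM and the lowest diabetic vehicle library at 193.2 CPM. Atp5o rose (0.58 ± 0.07, adjusted p = 1.52e-07) and fell in diabetic mice given PMX-53 (-0.40 ± 0.07, adjusted p = 6.41e-05). Its exons overlap those of Gm15976 and D430001F17Rik on the other strand and of a second gene model of the same name, and whether reads were counted by strand is not given in the sources used here.

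Atp5h, subunit d of the peripheral stalk, went from 111, 123 and 132 CPM to 149.8, 164 and 178 CPM (0.41 ± 0.06, adjusted p = 2.08e-06) and lay at 119, 125 and 135 CPM in diabetic PMX-53 libraries (-0.37 ± 0.06, adjusted p = 2.84e-05). Atp5j2 (subunit f) and Atp5k (subunit e) belong to the membrane part where dimers form. Atp5j2 went from 39.5, 49.8 and 59.0 CPM to 61.2, 75.4 and 76.3 CPM (0.54 ± 0.10, adjusted p = 8.14e-05), and lay at 38.2, 47.5 and 55.2 CPM in diabetic mice given PMX-53 (-0.59 ± 0.10, adjusted p = 8.03e-05). Atp5k rose by 0.59 ± 0.16 (adjusted p = 0.00606) and fell by 0.67 ± 0.16 (adjusted p = 0.00408), with overlap of the vehicle groups at 16.4 to 28.2 and 25.7 to 41.6 CPM. The lowest non-diabetic vehicle values of Atp5j2 and Atp5k again came from libraries 5 and 6. Atp5f1 (subunit b) and Atp5j (factor 6) rose by 0.23 ± 0.04 and 0.22 ± 0.05. Exons of Atp5j overlap 397 bases of Gabpa on the other strand, a gene that fell with diabetes on vehicle (-0.37 ± 0.05, adjusted p = 4.80e-07).

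Atp5l, subunit g, was not called and stood apart by its low level. It had 495 counts in all libraries and lay at 0.785, 1.09 and 2.28 CPM in non-diabetic vehicle and 1.02, 1.37 and 1.60 CPM in diabetic vehicle libraries (0.09 ± 0.21, adjusted p = 0.758). The subunits e and f of the same membrane part lay above 14 CPM in every library. Atp5l is counted here as uncertain, since its level is far from that of its partners and the reason was not tested.

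In the F1 head the gamma subunit Atp5c1, the central shaft, rose from 197, 203 and 211 CPM to 228, 245 and 265 CPM (0.27 ± 0.05, adjusted p = 8.76e-05) and fell to 183, 195 and 219 CPM in diabetic mice given PMX-53 (-0.31 ± 0.05, adjusted p = 4.42e-05). Atp5d, the delta subunit, rose by 0.25 ± 0.06 (adjusted p = 0.00238) and fell by 0.21 ± 0.06 (adjusted p = 0.0162). The alpha subunit Atp5a1 went from 1135, 1159 and 1197 CPM to 1309.6, 1352 and 1433 CPM (0.23 ± 0.05, adjusted p = 5.62e-04). In diabetic PMX-53 libraries it lay at 1137, 1253 and 1309.7 CPM, so that it just met the diabetic vehicle range, and did not pass against vehicle (-0.13 ± 0.05, adjusted p = 0.0523). The catalytic beta subunit Atp5b, at 1679, 1711 and 1730.2 CPM and 1742, 1843 and 1914 CPM in the vehicle groups, did not overlap between them, yet its change of 0.10 ± 0.05 did not pass (adjusted p = 0.10), whereas DESeq2 called it at 0.11 (adjusted p = 0.00619). In diabetic mice given PMX-53 Atp5b had -0.08 ± 0.05 (adjusted p = 0.237), and DESeq2 called it at -0.08 (adjusted p = 0.0432). Atp5e, the epsilon subunit, was called in neither comparison (0.12 ± 0.06, adjusted p = 0.107, and -0.06 ± 0.06, adjusted p = 0.478).

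The c-ring is built from one mature protein that 3 genes encode. Atp5g1 went from 64.8, 68.7 and 78.8 CPM to 89.4, 101 and 112 CPM in diabetic vehicle libraries and lay at 69.4, 81.0 and 84.4 CPM in diabetic PMX-53 libraries. All its diabetic vehicle libraries were above the 18 others, with changes of 0.51 ± 0.06 (adjusted p = 2.21e-07) and -0.34 ± 0.06 (adjusted p = 1.48e-04). Atp5g3 rose by 0.18 ± 0.05 (adjusted p = 0.00540), from 230.5, 252 and 259 CPM to 269.9, 282 and 292 CPM, and was not called with PMX-53 (-0.04 ± 0.05, adjusted p = 0.558). Without scaling its rise was 0.08 and was not called (adjusted p = 0.495). Atp5g2, at 15.3, 20.6 and 26.2 CPM against 21.2, 27.7 and 30.3 CPM, did not pass (0.32 ± 0.14, adjusted p = 0.0641, and -0.31 ± 0.14, adjusted p = 0.0986). Per length of transcript, Atp5g1 made up 21.4 to 25.7% of the 3 genes in non-diabetic vehicle and 24.98 to 29.2% in diabetic vehicle libraries, and Atp5g3 62.7 to 70.9% and 60.5 to 66.7%. The coding transcripts of Atp5g1 run from 596 to 4715 bases, so its level per length is uncertain.

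Of the 2 genes named for ATP synthase that are no core subunits, Atp5sl, which is known in complex I assembly, rose by 0.21 ± 0.05 (adjusted p = 0.00231) and fell by 0.20 ± 0.05 (adjusted p = 0.00612). Atp5s, at 5.85, 6.28 and 7.33 CPM and 5.42, 5.76 and 6.24 CPM in the vehicle groups, was not called (-0.13 ± 0.09, adjusted p = 0.296).

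Compared per length of transcript in non-diabetic vehicle libraries, Atp5b had the highest level of the 48 members at 891 ± 9.18 CPM per kilobase (SD, n = 6), above all libraries of the next gene. Atp5a1 followed at 471 ± 11.4 and Cox4i1 at 450 ± 32.4, and these overlapped. Atp5g3 stood at 348 ± 16.5, Cox6a1 at 306 ± 43.5 and Cox6b1 at 300.3 ± 17.3, each overlapping with the next. The highest complex III gene was Uqcr10 at 254 ± 22.6 and the highest complex II gene Sdha at 184 ± 4.93. Below Cox7a2l at 36.0 ± 2.23 came Atp5sl, then Cox7a1 at 10.99 ± 1.62, Cox6b2 at 5.24 ± 1.07, Atp5s at 4.26 ± 0.368, Atp5l at 2.36 ± 1.02 and Cox6a2 at 1.46 ± 0.548. Cox6b2, Atp5s and Atp5l each overlapped with the next gene.

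Among the members shorter transcripts had larger changes. Over the 44 tested members Spearman's rho of log2 fold change against transcript length was -0.55 with diabetes on vehicle and 0.59 with PMX-53 in diabetic mice, against -0.06 and 0.09 over 13425 tested genes with a protein-coding transcript. These are descriptions across genes that share the same libraries. Among members under 1000 bases 85.7% of 28 rose with diabetes on vehicle, with a median of 0.37. Among the 909 other tested protein-coding genes of that length, members left out, 33.3% rose, with a median of 0.12. Of the 12 members from 1000 to 2000 bases 58.3% rose, and of the 4 longer ones 50%. An offset for the length trend of each library used the merged exon length of a gene. This differs from the transcript length above, at 6443 and 544 bases for Atp5l. How far the offset adjusted for the relation to transcript length described here was not tested. With the offset the members' medians relative to all tested genes were 0.27 with diabetes on vehicle and -0.27 with PMX-53 in diabetic mice. Without the offset they were 0.30 and -0.31. With the offset 33 members rose with diabetes on vehicle, 31 fell with PMX-53 in diabetic mice and 22 were called in the interaction.

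Of 4 further genes of complexes IV and V outside the name rule 3 rose with diabetes on vehicle and 4 fell with PMX-53 in diabetic mice. Of all tested genes 20.4% rose in the first comparison and 13.5% fell in the second. Usmg5 and 2010107E04Rik, small proteins of the ATP synthase membrane part, rose by 0.45 ± 0.06 and 0.46 ± 0.06 (adjusted p = 1.22e-06 and 1.18e-06) and fell by 0.52 ± 0.06 and 0.42 ± 0.06 (adjusted p = 7.40e-07 and 1.64e-05). The ATPase inhibitor Atpif1, which is counted among the 4 but is no subunit, rose by 0.39 ± 0.10 and fell by 0.54 ± 0.10. Ndufa4, now counted with complex IV, did not pass with diabetes on vehicle (0.07 ± 0.05, adjusted p = 0.244) and fell with PMX-53 (-0.29 ± 0.05, adjusted p = 7.07e-05). It was also lower in diabetic than in non-diabetic mice on PMX-53 (-0.18 ± 0.05, adjusted p = 0.0150).

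Of the 6 mitochondrially encoded subunits of complexes III to V that the table holds, mt-Co1 and mt-Cytb passed the filter. mt-Co1, the catalytic subunit of complex IV, lay at 10528.5 to 12247 CPM in non-diabetic vehicle and 13414.5 to 15811 CPM in diabetic vehicle libraries, with no overlap. It rose by 0.39 ± 0.08 (adjusted p = 5.17e-04) and fell in diabetic mice given PMX-53 (-0.23 ± 0.08, adjusted p = 0.0399). mt-Cytb, of complex III, did not pass (0.31 ± 0.15, adjusted p = 0.0999). mt-Co2, mt-Co3, mt-Atp6 and mt-Atp8 lay below 0.1 CPM in every library, and the reason was not tested.

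Slc25a4 and Slc25a5, which exchange ADP for ATP across the inner membrane, rose with diabetes on vehicle and fell with PMX-53 in diabetic mice. Slc25a4, the carrier known from heart and muscle, went from 123 to 231 CPM on average (0.91 ± 0.07, adjusted p = 3.82e-10) and fell in diabetic mice given PMX-53 (-0.58 ± 0.07, adjusted p = 1.67e-06). Slc25a5, the widely expressed form, rose by 0.50 ± 0.05 (adjusted p = 2.80e-08) and fell by 0.40 ± 0.05 (adjusted p = 3.41e-06). Of the 6 tested nucleotide, phosphate and outer membrane carriers 4 rose with diabetes on vehicle and 2 fell with PMX-53 in diabetic mice. Of all tested genes 20.4% rose in the first comparison and 13.5% fell in the second. The other carriers that rose were Vdac2 at 0.19 ± 0.05 and the phosphate carrier Slc25a3 at 0.12 ± 0.04. Of 7 tested electron carriers and feeders Dhodh rose by 0.23 ± 0.08 and Etfa fell by 0.14 ± 0.05 with diabetes on vehicle. Of all tested genes 20.4% rose, 19.9% fell and 40.3% changed either way there. Cytochrome c (Cycs) had 0.09 ± 0.08 (adjusted p = 0.388) and fell in diabetic mice given PMX-53 (-0.24 ± 0.08, adjusted p = 0.0203).

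**Figure D5:**
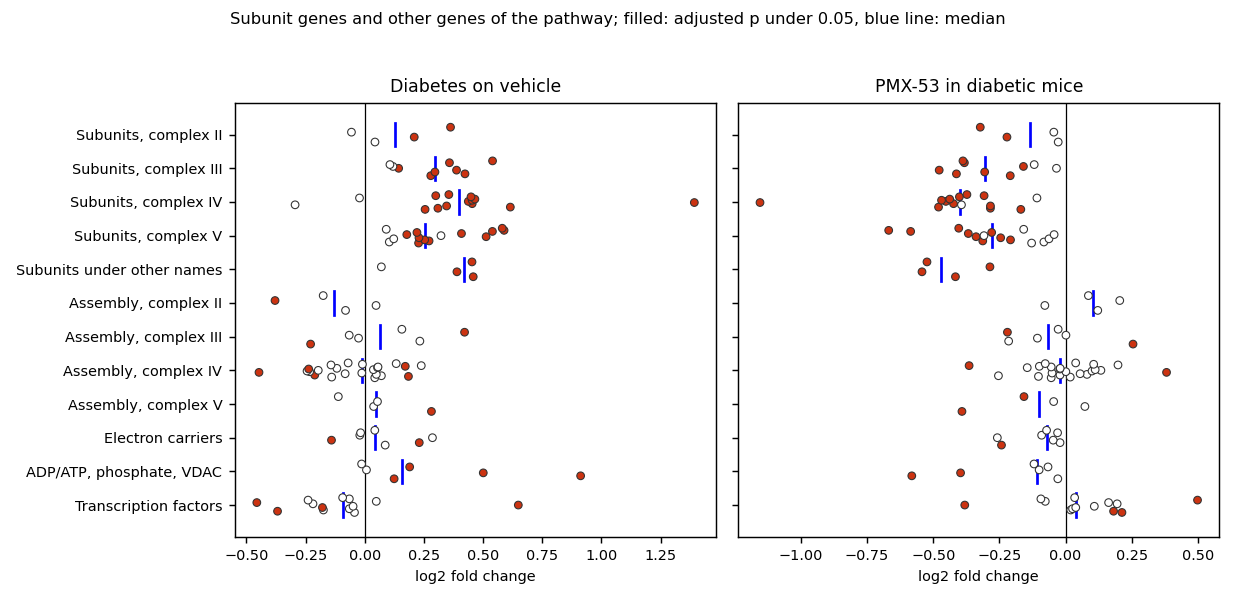
Log2 fold change of each tested gene (points, filled where the adjusted p was under 0.05) and the median (blue line) for the subunits of each complex and the other gene lists of the pathway in 2 comparisons. Most filled points of the subunit lists lie right of 0 with diabetes on vehicle and left of 0 with PMX-53 in diabetic mice (33 and 31 members, or 24 and 20 without scaling). The transcription factor list and the assembly lists of complexes III and IV hold called genes on both sides. The assembly lists of complexes II and V hold none on both sides within a comparison. The list of subunits under other names includes the ATPase inhibitor Atpif1, which is no subunit.

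Assembly factors of the complexes were called in both directions, and the counts that follow stand beside 20.4% of all tested genes that rose and 19.9% that fell with diabetes on vehicle. Of 4 tested for complex II 0 rose and 1 fell with diabetes on vehicle, Sdhaf3 at -0.38 ± 0.08 (adjusted p = 8.10e-04). Of 6 for complex III Uqcc2 rose (0.42 ± 0.07, adjusted p = 1.87e-05) and Bcs1l, which inserts the Rieske protein, fell (-0.23 ± 0.08, adjusted p = 0.0234), and both went the other way with PMX-53 in diabetic mice. Of 23 for complex IV 2 rose, Coa5 and Lrpprc, and 3 fell, with Cox15, an enzyme of heme a synthesis, at -0.45 ± 0.07 (adjusted p = 9.51e-06). Cox15 was higher again with PMX-53 (0.38 ± 0.07, adjusted p = 1.67e-04) and Pet100 lower (-0.36 ± 0.11, adjusted p = 0.0152). Of 4 for complex V 1110001J03Rik rose (0.28 ± 0.07, adjusted p = 0.00222), and it fell with PMX-53 in diabetic mice along with Tmem70. The medians of the 4 lists with diabetes on vehicle were -0.13, 0.07, -0.01 and 0.05, beside -0.00 for all tested genes.

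Among 13 tested transcription factors and coactivators of respiratory genes 1 rose and 3 fell with diabetes on vehicle, a share of called genes below the 40.3% of all tested genes. Ppargc1a, the coactivator PGC-1 alpha, went from 89.8 to 141 CPM on average (0.65 ± 0.08, adjusted p = 4.07e-07) and fell in diabetic mice given PMX-53 (-0.38 ± 0.08, adjusted p = 7.38e-04). Gabpa, the DNA-binding GABP subunit of the ETS family, fell by 0.37 ± 0.05 and rose by 0.18 ± 0.05 (adjusted p = 0.00409) with PMX-53. Pprc1 fell by 0.46 ± 0.11 (adjusted p = 0.00189) and Nrf1, which encodes NRF-1, by 0.18 ± 0.07 (adjusted p = 0.0331). Esrra, the ERR alpha gene, had -0.04 ± 0.06 (adjusted p = 0.625) and rose in diabetic mice given PMX-53 (0.21 ± 0.06, adjusted p = 0.0143).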

How the data were processed

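Directional libraries were made from total RNA of renal cortex after removal of ribosomal RNA, per the labels' protocols. The submitters' processing notes name bcl2fastq 2.20.0.422 and STAR. For the counting tool, strand setting, annotation and genome build: not given in the sources used here. The authors deposited 1 table of raw counts per gene for 24 libraries, with 0 entries that name no gene. 48058 of 48526 identifiers matched GENCODE M21 (GRCm38), the source of coordinates and lengths.

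Counts were filtered with filterByExpr, scaled by TMM and tested in edgeR 4.0.16 (R 4.3.3, quasi-likelihood, robust) over all 4 groups of 6, with Benjamini-Hochberg adjustment over 15808 genes for each comparison. The SE was taken as the absolute log2 fold change over the root of the F statistic. Levels per kilobase use 1 coding transcript per gene. Tests ran first on simulated data with known changes. The alternatives were DESeq2 1.42.0, other scalings and filters, a length offset (by merged exon length), a replicate block and leaving out libraries. Within groups 60 pairs of libraries were compared and 0 were identical. Figures were drawn with matplotlib 3.10.9 in Python 3.11.15.

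The members and gene lists were chosen with earlier results of these data known. Named are the members with the smallest p in each complex, the tissue-specific isoforms with their counterparts, Cox7a2l, the c-ring genes, members called in neither main comparison, and up to 3 genes a direction of other lists. Other members are named to complete a complex.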

Additional observations from a re-analysis of the deposited data

Results flagged for a closer look

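In 124 groups of 6 libraries checked, 9 held a library far from the other 5, and chance gives about 1 in 20 groups. Non-diabetic PMX-53 library 6 was the lowest of its group in Atp5c1 at 176 CPM, in Atp5j2 at 45.3 CPM, in Cox6c at 120.1 CPM and in Cox7a2 at 113 CPM, and the highest in Atp5h at 146 CPM. Non-diabetic PMX-53 library 1 was the highest in Cox6b1 at 203 CPM. Non-diabetic vehicle library 3 was the highest in Atp5e at 83.5 CPM and library 6 the highest in Atp5s at 7.33 CPM. Diabetic PMX-53 library 1 was the lowest in Atp5s at 5.08 CPM.

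In edgeR's quasi-likelihood test of the interaction 27 members were called, all with values below 0. Of all tested genes 4.76% were called below 0 and 9.42% in either direction. The interaction also uses the diabetic vehicle libraries. A trait of that group therefore cannot be told apart from a PMX-53 effect that differs with diabetes. Among the called members named, Uqcrb had -0.48 ± 0.08 (SE, adjusted p = 3.99e-04), Cox7a2 -0.42 ± 0.07 (adjusted p = 5.14e-04), Cox6c -0.46 ± 0.08 (adjusted p = 5.83e-04) and Cox6b1 -0.49 ± 0.08 (adjusted p = 7.69e-04). The isoforms Cox7a1 and Cox6b2 had -0.67 ± 0.16 (adjusted p = 0.00900) and -1.03 ± 0.28 (adjusted p = 0.0187).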

How the results depend on the processing

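Of 44 tested members, 33 rose with diabetes on vehicle, 31 fell with PMX-53 in diabetic mice and 27 were below 0 in the interaction. Without scaling beyond library totals these counts were 24, 20 and 14. Under the other scalings, filters, models and offsets with all libraries they were 32 to 36, 30 to 34 and 21 to 27. Leaving out 1 library gave 32 to 35, 30 to 33 and 23 to 29. With diabetes on PMX-53 DESeq2 called 2 members higher against 0, and leaving out 1 library gave 0 to 1, with 1 call without non-diabetic PMX-53 library 6 or diabetic PMX-53 library 1 or 3. Leaving out non-diabetic vehicle libraries 5 and 6 together, chosen after seeing the data, gave 31 with diabetes on vehicle and 21 in the interaction, where Cox6a1 (-0.24, adjusted p = 0.120), Cox6b2 (-0.92, adjusted p = 0.0520) and Sdhb (-0.24, adjusted p = 0.0568) lost their calls.

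Replicate numbers did not pair the libraries: 36 same-numbered pairs correlated at -0.12 to 0.13, and 0 of 24 libraries correlated best with their own number. With the replicate block the counts were 33, 30 and 26, and with the block and length offset 33, 31 and 23.

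Some members changed sign. Without scaling Sdha had -0.052 with diabetes on vehicle. With PMX-53 in diabetic mice Atp5b had 0.036, Atp5e 0.054, Atp5g3 0.077, Cox7a2l 0.0074, Sdha 0.092, Sdhc 0.076 and Uqcrfs1 0.0025. In the interaction Atp5b had 0.061, Atp5g3 0.089, Cox7a2l 0.089, Sdha 0.10, Sdhc 0.082 and Uqcrfs1 0.0030. Cox7a2l had 0.024 in the interaction with the length offset, with or without the block. Leaving out 1 library, Atp5l ranged from -0.023 to 0.32 with diabetes on vehicle, and in the interaction Cox7a2l from -0.048 to 0.0051 and Sdha from -0.040 to 0.0063. Without non-diabetic vehicle libraries 5 and 6 Atp5l had -0.0045 and Cox7a2l 0.014 with diabetes on vehicle, and Sdha 0.0065 in the interaction. None of these was called with TMM, and the cause was not tested. Low counts kept Cox4i2, Cox7b2, Cox8b and Cox8c out of the tests and limit Cox6a2 and Atp5l most among the tested members.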
